A study of Mus musculus with 4 samples.

Results

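The data described here are the probe sets of a microarray that report 36 marker genes of myeloid and antigen-presenting cells. They were read in sorted CD4+ T cells with a deleted or an intact Foxp3 gene. The genes were chosen by name, and every probe set annotated to exactly one of their symbols was taken. This gave 53 of the 45101 probe sets on the array, for 34 of the 36 genes. Ly6g, a neutrophil surface marker, had no probe set annotated to it, and H2-DMb1 was named only on probe sets shared with H2-DMb2. Of the 53 probe sets, 26 had a mean log2 intensity below 4, the level below which readings crowd near the lower limit of these arrays and are called near the floor here.

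The cells on each of the 4 arrays were mouse CD4+ T cells, positive for YFP and Ly5.2 and taken 6 weeks after adoptive transfer. In the Foxp3-deleted group (2 arrays) the cells carried a loxP-flanked Foxp3 locus, which Cre recombinase excises, and in the wild-type group (2 arrays) the Foxp3 locus was intact. Both groups had been treated with the Cre construct HR-MMPCreGFP, and both were gated on YFP, whose expression marks cells that Cre has reached. The comparison addresses what mature regulatory T (Treg) cells express once Foxp3, their defining transcription factor, is removed. The sources used here give no age or sex of the donors, do not describe the hosts, and do not say whether samples of a group came from separate animals, so p-values reflect only how far the samples of a group differ, and that may be technical.

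Myeloid cells (monocytes, macrophages, neutrophils and dendritic cells) are the phagocytes and professional antigen-presenting cells of the immune system. Their markers include lysozyme, the complement component C1q, the calprotectin subunits of neutrophils and the Fc receptor gamma chain and DAP12 signalling adaptors. Major histocompatibility complex (MHC) class II molecules present peptides to CD4+ T cells on dendritic cells, macrophages and B cells, and mouse T cells are generally regarded as making little class II of their own. A few of the markers are also known in lymphocytes, among them Tyrobp and Fcer1g in natural killer (NK) cells and innate-like T cells.

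Transcription of class II genes depends on promoter elements called the X box, bound by the RFX complex, and the Y box, bound by NF-Y, on which the coactivator CIITA assembles. RefSeq promoter windows of build GRCm38.p6, from 250 bases before to 50 after a gene's start, were found for 7 of the 10 class II genes among the markers (H2-Aa, H2-Eb1, H2-DMa, H2-DMb1, H2-DMb2, H2-Oa and H2-Ob). H2-Ab1, Cd74 and Ciita had no window. These genes have 8 windows, since H2-DMa has 2. The Y box letters GATTGG stood on the gene's own strand in 7 of the 8, against 8.71% of all 32851 windows, or 16.1% when both strands were searched. The window without them was the H2-DMa one at chr17:34122582-34122881. The 120 bases before the start are shown for the 4 genes in which the X box letters GCAAC preceded them. Of these genes 2 encode chains of the peptide-presenting molecules and 2 encode H2-O. The mean differences of these pairs had opposite signs on the arrays, but the groups overlapped for all of these genes except H2-Ob. A link of the letters to those differences was not tested. Capitals mark GCAAC and GATTGG, and each sequence runs 5′ to 3′ on the gene's strand.
H2-Aa, chr17:34287824-34287943, minus strand: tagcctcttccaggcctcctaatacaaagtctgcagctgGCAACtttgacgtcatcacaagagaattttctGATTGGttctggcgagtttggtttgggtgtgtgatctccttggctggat
H2-Eb1, chr17:34305747-34305866, plus strand: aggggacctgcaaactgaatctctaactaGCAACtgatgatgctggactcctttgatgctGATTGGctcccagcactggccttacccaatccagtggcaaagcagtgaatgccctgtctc
H2-Oa, chr17:34092259-34092378, plus strand: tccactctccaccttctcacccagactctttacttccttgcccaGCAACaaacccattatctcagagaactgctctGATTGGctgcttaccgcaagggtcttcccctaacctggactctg
H2-Ob, chr17:34238785-34238904, plus strand: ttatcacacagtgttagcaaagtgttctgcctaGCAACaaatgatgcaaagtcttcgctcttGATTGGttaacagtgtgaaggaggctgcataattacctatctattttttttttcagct

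In these 4 windows GATTGG began between 44 and 60 bases before the start, and GCAAC began 29 to 32 bases before those letters. The letters GCAAC alone occurred on either strand in 35.2% of all windows, and the pair at those spacings, which were read from these 4 genes, in 0.0944%. The letters describe the windows and do not show that a factor was bound in these cells.

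The labels were checked on Foxp3 itself, which read a log2 intensity of 8.77 and 8.75 on the Foxp3-deleted arrays against 11.40 and 11.23 on the wild-type arrays (difference -2.55, SE 0.28, adjusted p = 0.0749 in limma). Its signal was lower on the deleted arrays but stayed far above the floor there. Ptprc, which encodes the pan-leukocyte antigen of which Ly5.2 is an allelic form, read between 13.44 and 13.83 on all arrays. Of 11 tested T cell identity genes 10 were bright, which means a log2 intensity of at least 8 on every array, among them Cd3d, Cd3g and Thy1. The exception was Cd4, the gene of the marker that defines these cells, at 9.03 and 9.63 on the Foxp3-deleted arrays against 8.38 and 7.15 on the wild-type arrays. Its groups did not overlap (difference 1.56, SE 0.52, adjusted p = 0.411 in limma), and wild-type replicate 2 was the lowest array. The lineage markers that define B cells, neutrophils and macrophages are given below beside the results they move with.

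For the tests, each gene was represented by its probe set with the highest mean, and genes whose mean reached 4 on the log2 scale were compared between the groups with limma, a linear model that shares information on the spread across genes. This left 8629 genes, of which 0% passed an adjusted p of 0.05, and 9.95% had an unadjusted p below 0.05. Of the 34 measured markers 20 were tested and 14 lay near the floor on their brightest probe set. None of the 20 passed, and 4 had an unadjusted p below 0.05 (H2-Ob, H2-Ab1, Cd86 and Cybb). The mean was higher in deleted cells for 15 of the 20 and lower for 5, and it was higher for 48.1% of all tested genes. The median difference of the 20 was 0.68 on the log2 scale (deleted minus wild type), against -0.02 over all tested genes. It came mostly from 1 array, since the median from the wild-type mean was 1.14 in Foxp3-deleted replicate 1 and 0.08 in replicate 2. As a description, a gene is also counted where the group means differed by at least 1 on the log2 scale and the arrays of the groups did not overlap. By that count 3 markers were higher (S100a8, Mpeg1 and H2-Ab1), against 5.57% of all tested genes, and 3 were lower (Cybb, Cd86 and H2-Ob), against 4.93%.

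**Figure D1:**
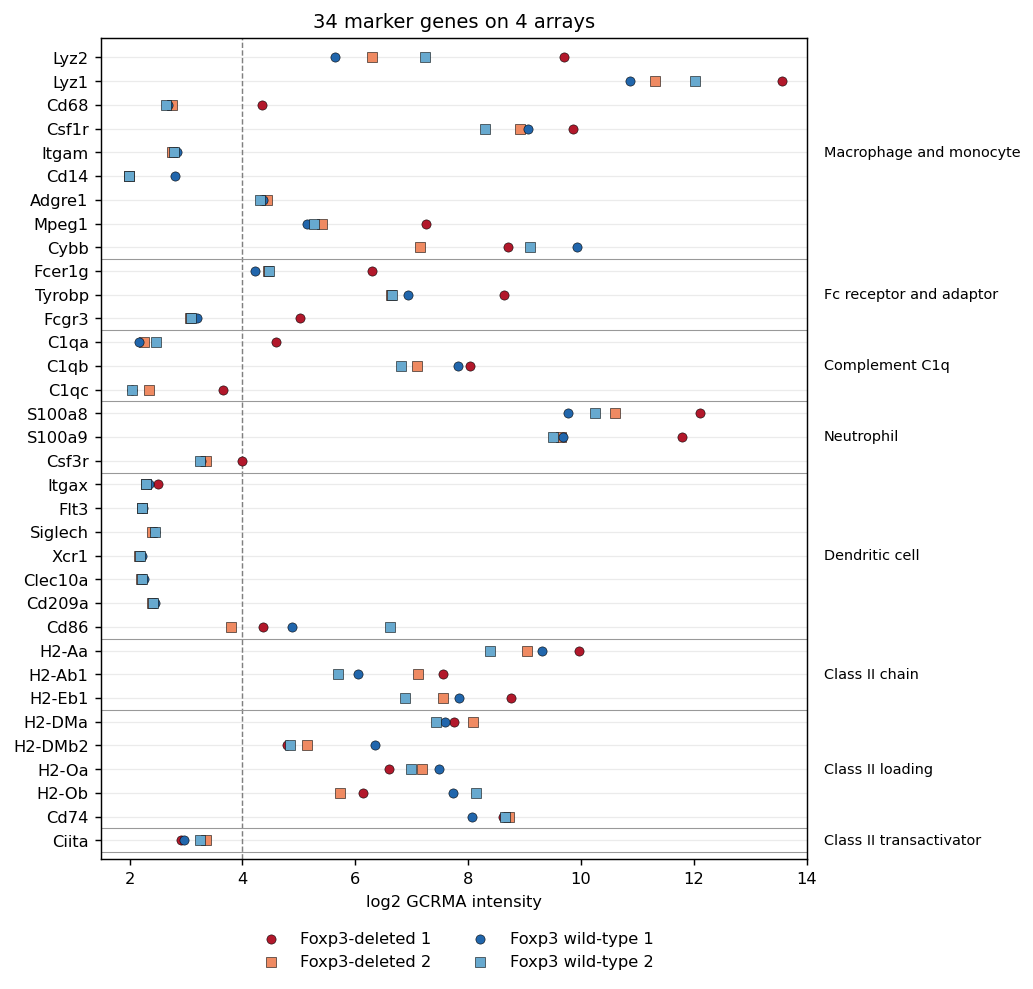
Log2 GCRMA intensity (x axis) of 34 marker genes (rows, grouped by role) on 4 arrays, for the probe set with the highest mean of each gene. The dashed line marks 4, below which probe sets are near the floor. In Lyz2, Mpeg1, Tyrobp, S100a9 and several others the array Foxp3-deleted 1 stands alone to the right, while most dendritic cell markers lie near 2 on every array.

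Some of these markers were bright in the sorted cells of both groups. The 6 genes with a bright probe set were Lyz1, Csf1r, S100a8, S100a9, H2-Aa and Cd74, which is 30.0% of the tested markers and close to the 30.4% of all tested genes that were bright. Of the 7 bright probe sets 5 had a name ending in _x_at, _s_at or _a_at, the manufacturer's marks for probes that can match other sequences, members of a family or several transcripts of a gene. Intensities of different probe sets are not amounts of RNA on one scale, so brightness says only that a probe set read far above the floor.

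At the other end, 11 genes read below a log2 intensity of 4 on every array and every probe set. They included 6 of the 7 dendritic cell markers, namely Itgax (CD11c, the integrin of conventional dendritic cells), Flt3 (the receptor of the cytokine that drives dendritic cell development), Siglech (plasmacytoid dendritic cells), Xcr1 (cross-presenting dendritic cells), Clec10a and Cd209a (lectins of dendritic cells and macrophages). Xcr1 read 2.18 and 2.16 on the Foxp3-deleted arrays against 2.21 and 2.18 on the wild-type arrays, and Siglech read 2.43 and 2.40 on the Foxp3-deleted arrays against 2.45 and 2.45 on the wild-type arrays. Itgam (CD11b, an integrin of most myeloid cells), Cd14 (a receptor for lipopolysaccharide on monocytes), C1qc, Csf3r and Ciita made up the rest of the 11. The highest value of Itgam on any array was 2.84. A reading near the floor gives an upper bound on this scale and no order between arrays.

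The pattern most common among the myeloid markers was a high value in Foxp3-deleted replicate 1 alone. It is counted where that array lay at least 1 above the higher wild-type array on the log2 scale and the other deleted array did not. Among the 20 tested markers 7 had this pattern (Lyz2, Lyz1, Mpeg1, Fcer1g, Tyrobp, S100a8 and S100a9), against 2.61% of all tested genes. The same pattern in Foxp3-deleted replicate 2 was found in 0 of the 20 markers, against 2.92% of all tested genes. Over all measured genes, with those near the floor included, it was found for 11 of 34 markers in replicate 1, against 1.57%. These 11 add Cd68, Fcgr3, C1qa and C1qc to the 7. C1qc read below 4 on every array, where arrays have no order, and 10 of 34 markers had the pattern with the high array at 4 or above, against 1.52%. On the level of probe sets, 14 of the 53 had it, from 13 genes, against 1.38% of the 34945 probe sets with 1 gene symbol. Of those 14 probe sets 5 had a mean near the floor, and the other 9 were among 27 marker probe sets with a mean of at least 4, against 2.66% of all such probe sets.

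**Figure D2:**
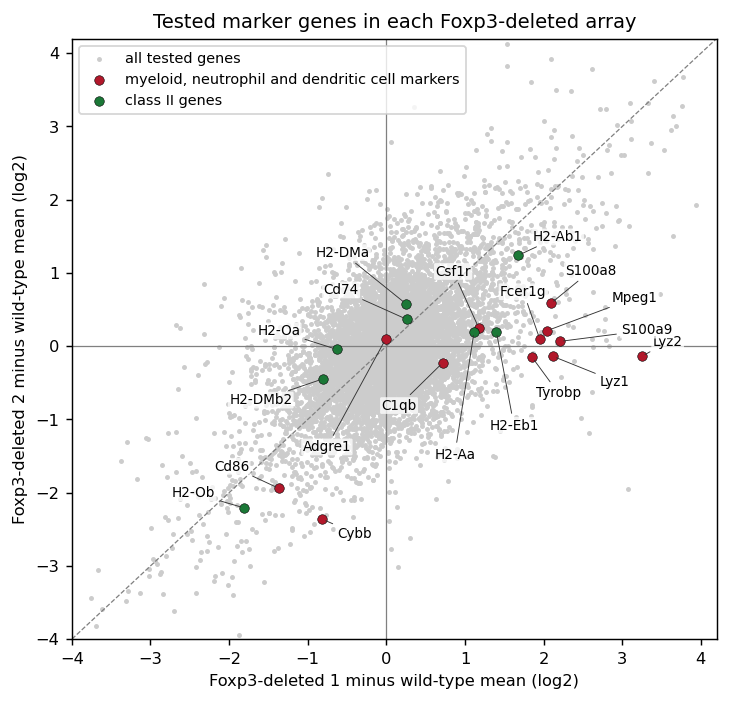
Difference from the wild-type mean in Foxp3-deleted replicate 1 (x axis) and in Foxp3-deleted replicate 2 (y axis), both on the log2 scale, for the 20 tested markers (red and green) and all 8629 tested genes (grey, 21 of them outside the drawn area). The dashed line marks equal differences in both deleted arrays. Lyz2, Lyz1, S100a9, Mpeg1, Fcer1g and Tyrobp lie far right near the horizontal line at 0, whereas H2-Ab1, H2-Ob and Cd86 lie nearer the dashed line.

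Lyz2 encodes lysozyme M, the bactericidal enzyme of macrophages and neutrophils. It read 9.69 and 6.30 on the Foxp3-deleted arrays against 5.65 and 7.24 on the wild-type arrays. Foxp3-deleted replicate 1 was highest, and the other deleted array lay between the wild-type arrays. The mean difference was 1.55 (SE 1.20, adjusted p = 0.756 in limma), and it was -0.14 without Foxp3-deleted replicate 1. The deleted arrays differed from each other by 3.39, or 10.5-fold.

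Lyz1 encodes lysozyme P, the close paralog known from Paneth cells. Its bright probe set read 13.57 and 11.31 on the Foxp3-deleted arrays against 10.87 and 12.03 on the wild-type arrays. The arrays had the same order as for Lyz2. A further bright probe set of Lyz1 read 11.83 and 9.54 on the Foxp3-deleted arrays against 9.11 and 10.21 on the wild-type arrays. Both bright Lyz1 probe sets carry the _x_at mark. The third Lyz1 probe set, without that mark, was near the floor at 3.32 and 2.89 on the Foxp3-deleted arrays against 2.54 and 2.77 on the wild-type arrays. Probe sequences were not used here, so whether the bright probe sets also read Lyz2 transcripts was not tested. Matches to other transcripts were also not tested for the _x_at and _s_at probe sets of C1qb, Csf1r, S100a8, H2-Aa, H2-Ab1 and H2-DMb2. Without Foxp3-deleted replicate 1 the Lyz1 difference was -0.14, against 0.99 with all arrays (SE 0.81, adjusted p = 0.764 in limma).

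S100a8 and S100a9 encode the paired subunits of calprotectin, the most abundant cytosolic proteins of neutrophils. S100a8 read 12.10 and 10.60 on the Foxp3-deleted arrays against 9.78 and 10.25 on the wild-type arrays. The groups did not overlap, but Foxp3-deleted replicate 1 was 1.51 above replicate 2. The mean difference was 1.34 (SE 0.55, adjusted p = 0.521 in limma), or 2.53-fold, and 0.58 without Foxp3-deleted replicate 1. S100a9 read 11.80 and 9.65 on the Foxp3-deleted arrays against 9.68 and 9.50 on the wild-type arrays. Only Foxp3-deleted replicate 1 stood out there. The S100a9 difference was 1.14 (SE 0.71, adjusted p = 0.707 in limma) and 0.07 without that array. Csf3r, the receptor for granulocyte colony-stimulating factor, was near the floor with 3.99 and 3.35 on the Foxp3-deleted arrays against 3.27 and 3.24 on the wild-type arrays.

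The adaptor genes Fcer1g and Tyrobp encode the Fc receptor gamma chain and DAP12, which carry the activating signal of many myeloid and NK cell receptors. Fcer1g read 6.30 and 4.45 on the Foxp3-deleted arrays against 4.23 and 4.47 on the wild-type arrays. Tyrobp read 8.64 and 6.64 on the Foxp3-deleted arrays against 6.93 and 6.65 on the wild-type arrays. For both genes 3 arrays lay close together and Foxp3-deleted replicate 1 lay above them, by 1.85 (Fcer1g) and 2.01 (Tyrobp) over the other deleted array. The group differences were 1.02 for Fcer1g (SE 0.65, adjusted p = 0.709 in limma) and 0.85 for Tyrobp (SE 0.71, adjusted p = 0.766 in limma). Without Foxp3-deleted replicate 1 they were 0.10 for Fcer1g and -0.15 for Tyrobp. Fcgr3, an activating receptor for immunoglobulin G that signals through the gamma chain, was near the floor on average and read 5.01 and 3.07 on the Foxp3-deleted arrays against 3.20 and 3.10 on the wild-type arrays.

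Mpeg1 encodes perforin-2, a pore-forming protein of macrophages. It read 7.25 and 5.42 on the Foxp3-deleted arrays against 5.14 and 5.27 on the wild-type arrays. Its arrays did not overlap between the groups only because Foxp3-deleted replicate 2 lay 0.21 above the wild-type mean, while replicate 1 lay 2.04 above it. The difference was 1.13 (SE 0.65, adjusted p = 0.682 in limma) and 0.21 without Foxp3-deleted replicate 1. Cd68, a lysosomal glycoprotein of macrophages, was near the floor on 3 arrays, with 4.34 and 2.75 on the Foxp3-deleted arrays against 2.67 and 2.64 on the wild-type arrays.

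The genes of C1q, the recognition molecule of the classical complement pathway, are a known product of tissue macrophages. C1qa read 4.60 and 2.26 on the Foxp3-deleted arrays against 2.16 and 2.47 on the wild-type arrays. C1qc read 3.65 and 2.34 on the Foxp3-deleted arrays against 2.05 and 2.04 on the wild-type arrays. The C1qb probe set without the _x_at mark read 4.66 and 3.21 on the Foxp3-deleted arrays against 3.24 and 3.28 on the wild-type arrays. For C1qa and this C1qb probe set Foxp3-deleted replicate 1 was highest and the other arrays were near the floor, and C1qc lay below 4 on every array. The brightest C1qb probe set, which carries the _x_at mark, read 8.03 and 7.09 on the Foxp3-deleted arrays against 7.81 and 6.82 on the wild-type arrays. Its groups overlapped, and the difference was 0.25 (SE 0.54, adjusted p = 0.929 in limma), -0.22 without Foxp3-deleted replicate 1 and -0.25 without wild-type replicate 2.

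Csf1r encodes the receptor for macrophage colony-stimulating factor, a defining receptor of monocytes and macrophages. Its 3 probe sets disagreed in level. The brightest read 9.85 and 8.93 on the Foxp3-deleted arrays against 9.06 and 8.30 on the wild-type arrays, with overlapping groups and a difference of 0.71 (SE 0.48, adjusted p = 0.717 in limma), 0.25 without Foxp3-deleted replicate 1 and 0.33 without wild-type replicate 2. A second read 6.88 and 5.92 on the Foxp3-deleted arrays against 5.52 and 4.69 on the wild-type arrays, with no overlap. The third was near the floor at 2.997 and 2.61 on the Foxp3-deleted arrays against 2.36 and 2.54 on the wild-type arrays. Adgre1, a classic surface antigen of macrophages, lay just above the filter and was flat, at 4.33 and 4.44 on the Foxp3-deleted arrays against 4.36 and 4.32 on the wild-type arrays.

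Foxp3-deleted replicate 1 was also high in part of a list of 50 other myeloid genes, of which 46 were measured. This list was chosen with earlier results of these data known, so its counts are a description and not independent support. Of the 20 of these that were tested, 10 had the pattern of Foxp3-deleted replicate 1 alone, against 2.61% of all tested genes. The pattern of replicate 2 was found in 1 (Ncf1), against 2.92%. Over the 46 measured genes, with those near the floor included, 13 had the pattern of replicate 1, against 1.57% of all measured genes. Among the largest differences were Ccl6, a myeloid chemokine (6.99 and 4.22 on the Foxp3-deleted arrays against 2.67 and 4.35 on the wild-type arrays), Clec4d (7.20 and 4.60 on the Foxp3-deleted arrays against 3.23 and 4.62 on the wild-type arrays) and the beta-glucan receptor Clec7a (6.71 and 4.23 on the Foxp3-deleted arrays against 4.21 and 3.82 on the wild-type arrays). The filter used the mean over all 4 arrays, so a gene could be tested only because of the array in which it was high, as Ccl6 was. The median over the 20 genes was 1.12 above the wild-type mean in Foxp3-deleted replicate 1 and -0.08 from it in replicate 2. For the 20 tested markers these medians were 1.14 and 0.08, and over all tested genes 0.01 and -0.05. Several genes of that list are also used by T cells, such as Id2, Irf8 and Cyba. Irf8, a factor of dendritic cells and B cells, was lower in deleted cells with no overlap, at 5.64 and 6.09 on the Foxp3-deleted arrays against 7.26 and 7.72 on the wild-type arrays (difference -1.63, SE 0.39, adjusted p = 0.281 in limma).

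Summed over the tested members of a list, the intensity of the 20 markers was 25633 and 7723 on the Foxp3-deleted arrays against 7448 and 9040 on the wild-type arrays. Such a sum mixes probe sets that are not on one scale and is carried by a few, and Lyz1, S100a8 and S100a9 gave 78.4% of it in Foxp3-deleted replicate 1. The other 17 markers summed to 5527 and 2832 on the Foxp3-deleted arrays against 3881 and 2922 on the wild-type arrays. The 20 other myeloid genes summed to 13184 and 8033 on the Foxp3-deleted arrays against 8815 and 7905 on the wild-type arrays, and 73.4% of the sum in Foxp3-deleted replicate 1 came from Id2, Cyba and Ncf4. Without these 3 the sum was 3502 and 1237 on the Foxp3-deleted arrays against 1752 and 1462 on the wild-type arrays. Foxp3-deleted replicate 1 was the highest array in each of these sums. They are nested and reuse the genes counted above, so they are not separate results.

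Genes of NK and innate T cells, a list chosen with the same knowledge, were higher in part on both deleted arrays and in part on replicate 1. Of 14 measured 8 were tested. By at least 1 with no overlap 5 of them were higher, against 5.57% of all tested genes, and 1 was lower, against 4.93%. The pattern of Foxp3-deleted replicate 1 alone was found in 4 (Klra8, Gzma, Eomes and Klrd1), against 2.61%. Eomes, counted both here and among the higher genes, passed the filter only through the deleted arrays. It read 6.54 and 5.01 on the Foxp3-deleted arrays against 2.80 and 4.48 on the wild-type arrays. The median of the 8 genes was 2.001 above the wild-type mean in Foxp3-deleted replicate 1 and 0.92 above it in replicate 2. Nkg7, a granule membrane protein, read 11.22 and 10.23 on the Foxp3-deleted arrays against 8.64 and 8.80 on the wild-type arrays. Cd160, a receptor of NK and cytotoxic T cells, was highest in Foxp3-deleted replicate 2, at 6.42 and 8.06 on the Foxp3-deleted arrays against 5.18 and 4.997 on the wild-type arrays. Gzmb, the cytotoxic protease granzyme B, which Treg cells also use, was the lower gene, at 5.29 and 5.61 on the Foxp3-deleted arrays against 9.14 and 8.94 on the wild-type arrays (difference -3.59, SE 0.35, adjusted p = 0.0749 in limma). The 8 genes summed to 5344 and 2044 on the Foxp3-deleted arrays against 1316 and 1413 on the wild-type arrays. Nkg7, Gzma and Gzmb gave 77.5% of the sum in Foxp3-deleted replicate 1 and 86.3% in wild-type replicate 1. Without these 3 the sum was 1201.9 and 431.3 on the Foxp3-deleted arrays against 180.2 and 173.5 on the wild-type arrays. This remainder is again carried by single genes, with Klrd1 the largest in Foxp3-deleted replicate 1 and Cd160 in replicate 2. Klrd1 read 9.67 and 6.07 on the Foxp3-deleted arrays against 4.24 and 5.56 on the wild-type arrays (difference 2.97, SE 1.22, adjusted p = 0.527 in limma). Of the 11 T cell identity genes 0 had the pattern of Foxp3-deleted replicate 1 alone, against 2.61% of all tested genes. In so short a list a count of 0 is near that share. The pattern of replicate 2 alone was found in 1 of them (Cd4), against 2.92%. The part of NK cells in the results on Tyrobp and Fcer1g, which they share with myeloid cells, was not tested. In a bulk sample, more cells of a type and more RNA per cell cannot be told apart.

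**Figure D3:**
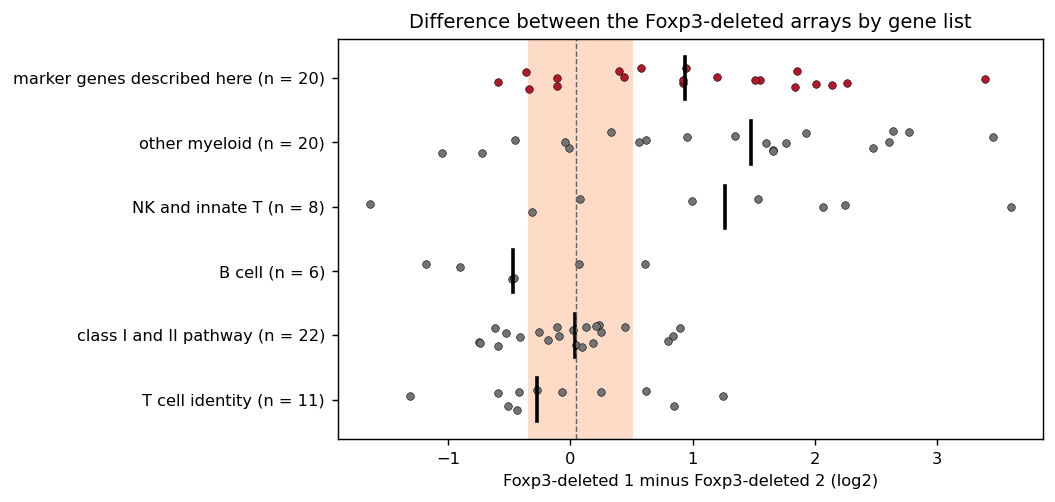
Log2 intensity of Foxp3-deleted replicate 1 minus that of Foxp3-deleted replicate 2 (x axis) for the tested genes of 6 lists, with each point a gene and the black bar the list median. The shaded band spans the middle 50% of all 8629 tested genes, from -0.34 to 0.50, and the dashed line their median. The medians were 0.93 for the markers described here, 1.47 for other myeloid genes and 1.26 for NK and innate T genes, against 0.05 over all tested genes.

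Cybb was 1 of the 3 markers with lower values on both deleted arrays by the count above, beside Cd86 and H2-Ob. It encodes gp91phox, the catalytic subunit of the phagocyte NADPH oxidase. Its brightest probe set read 8.70 and 7.15 on the Foxp3-deleted arrays against 9.94 and 9.09 on the wild-type arrays. Both deleted arrays lay below both wild-type arrays, although Foxp3-deleted replicate 1 was 1.55 above replicate 2. The difference was -1.59 (SE 0.63, adjusted p = 0.497 in limma), a 3.01-fold lower mean in deleted cells, and it ranged from -2.36 without Foxp3-deleted replicate 1 to -0.81 without replicate 2. With the mean over its 3 probe sets it was -0.41. The other 2 probe sets of Cybb were near the floor, at 3.30 and 2.46 on the Foxp3-deleted arrays against 2.48 and 2.38 on the wild-type arrays for the first of them. The second read 2.53 and 2.50 on the Foxp3-deleted arrays against 2.65 and 2.53 on the wild-type arrays. Genes of other subunits of the oxidase were measured too. Cyba, the membrane partner of gp91phox, differed by -0.02 (SE 0.24), and Ncf4, a cytosolic subunit, read 9.98 and 9.42 on the Foxp3-deleted arrays against 9.99 and 10.40 on the wild-type arrays. Ncf1, another cytosolic subunit, had higher values on both deleted arrays, at 4.79 and 5.52 on the Foxp3-deleted arrays against 4.21 and 4.33 on the wild-type arrays (difference 0.89, SE 0.38, adjusted p = 0.542 in limma).

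Cd86, a costimulatory ligand for CD28 and CTLA-4, was the dendritic cell marker above the filter. It read 4.37 and 3.80 on the Foxp3-deleted arrays against 4.87 and 6.61 on the wild-type arrays. The groups did not overlap, but wild-type replicate 2 lay far above the other arrays. The difference was -1.65 (SE 0.64, adjusted p = 0.492 in limma), and without wild-type replicate 2 it was -0.78. The other Cd86 probe set, near the floor, read 3.57 and 3.56 on the Foxp3-deleted arrays against 4.64 and 3.61 on the wild-type arrays, where wild-type replicate 1 was the high array. The costimulatory receptor Cd40 had a similar direction, at 4.06 and 3.62 on the Foxp3-deleted arrays against 6.05 and 4.89 on the wild-type arrays (difference -1.63, SE 0.49, adjusted p = 0.373 in limma).

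The genes of the class II alpha and beta chains form the peptide-binding molecules I-A (H2-Aa and H2-Ab1) and I-E (H2-Eb1). The brightest H2-Ab1 probe set, which carries the _s_at mark, read 7.55 and 7.11 on the Foxp3-deleted arrays against 6.05 and 5.69 on the wild-type arrays. Whether it also reads other transcripts was not tested. Both deleted arrays lay above both wild-type arrays, each by more than 1. The difference was 1.46 (SE 0.38, adjusted p = 0.312 in limma), or 2.75-fold, and it stayed between 1.24 and 1.68 when any 1 array was left out. The other 2 H2-Ab1 probe sets were near the floor. The _x_at one read 2.82 and 2.12 on the Foxp3-deleted arrays against 2.22 and 2.13 on the wild-type arrays, and the _a_at one read between 2.32 and 2.33 on all arrays. The mean over its probe sets lay below the filter, so with that choice H2-Ab1 was not tested.

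H2-Aa read 9.97 and 9.05 on the Foxp3-deleted arrays against 9.32 and 8.39 on the wild-type arrays. H2-Eb1 read 8.76 and 7.56 on the Foxp3-deleted arrays against 7.84 and 6.89 on the wild-type arrays. In both genes the groups overlapped, with the order Foxp3-deleted replicate 1, wild-type replicate 1, Foxp3-deleted replicate 2 and wild-type replicate 2 from high to low. The difference was 0.66 for H2-Aa (SE 0.50, adjusted p = 0.754 in limma) and 0.80 for H2-Eb1 (SE 0.58, adjusted p = 0.742 in limma). Leaving out Foxp3-deleted replicate 1 brought these to 0.20 for both genes, and leaving out wild-type replicate 2 gave 0.19 for H2-Aa and 0.32 for H2-Eb1. The further H2-Aa probe sets had differences of 0.53, 0.60 and 0.43, the last of them near the floor.

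Cd74 encodes the invariant chain, which escorts class II molecules to the endosome and fills their groove until it is cleaved there. It was bright on all arrays, at 8.62 and 8.73 on the Foxp3-deleted arrays against 8.06 and 8.66 on the wild-type arrays. The difference was 0.31 (SE 0.37, adjusted p = 0.843 in limma), and without wild-type replicate 1 it was 0.01. Ctss, the endosomal protease that removes the invariant chain, read 13.18 and 12.38 on the Foxp3-deleted arrays against 13.40 and 13.78 on the wild-type arrays (difference -0.81, SE 0.32, adjusted p = 0.496 in limma).

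H2-DM, made of the products of H2-DMa and a DM beta gene, loads peptides onto class II, and H2-O, made of H2-Oa and H2-Ob, restrains it and is known chiefly from B cells. H2-DMa read 7.75 and 8.09 on the Foxp3-deleted arrays against 7.59 and 7.43 on the wild-type arrays. Its deleted arrays lay above its wild-type arrays by a small margin (difference 0.41, SE 0.35, adjusted p = 0.77 in limma, 0.24 without Foxp3-deleted replicate 2, and 0.10 with the mean over its 2 probe sets, of which the second was near the floor). H2-DMb2 read 4.79 and 5.15 on the Foxp3-deleted arrays against 6.35 and 4.85 on the wild-type arrays, where wild-type replicate 1 alone was high, and its difference of -0.63 (SE 0.57, adjusted p = 0.784 in limma) was 0.12 without that array. A second H2-DMb2 probe set had the same high array, at 4.40 and 4.80 on the Foxp3-deleted arrays against 6.07 and 4.57 on the wild-type arrays. The 2 probe sets shared by H2-DMb1 and H2-DMb2 read between 2.59 and 3.36 on all arrays.

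H2-Ob had the smallest p of the markers. It read 6.13 and 5.73 on the Foxp3-deleted arrays against 7.74 and 8.14 on the wild-type arrays, and each deleted array lay more than 1 below each wild-type array. The difference was -2.01 (SE 0.38, adjusted p = 0.181 in limma), a 4.03-fold lower mean in deleted cells, and it stayed between -2.21 and -1.81 when any 1 array was left out. A probe set annotated to both H2-Ob and Gm20506 was near the floor, at 3.39 and 3.37 on the Foxp3-deleted arrays against 3.49 and 4.19 on the wild-type arrays. Its partner H2-Oa read 6.60 and 7.19 on the Foxp3-deleted arrays against 7.48 and 6.99 on the wild-type arrays, with overlapping groups (difference -0.34, SE 0.41, adjusted p = 0.85 in limma, and -0.04 without Foxp3-deleted replicate 1). In the windows printed above, H2-Ob and H2-Aa hold the same GCAAC and GATTGG letters at similar places, and a link of these letters to the array values was not tested.

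**Figure D4:**
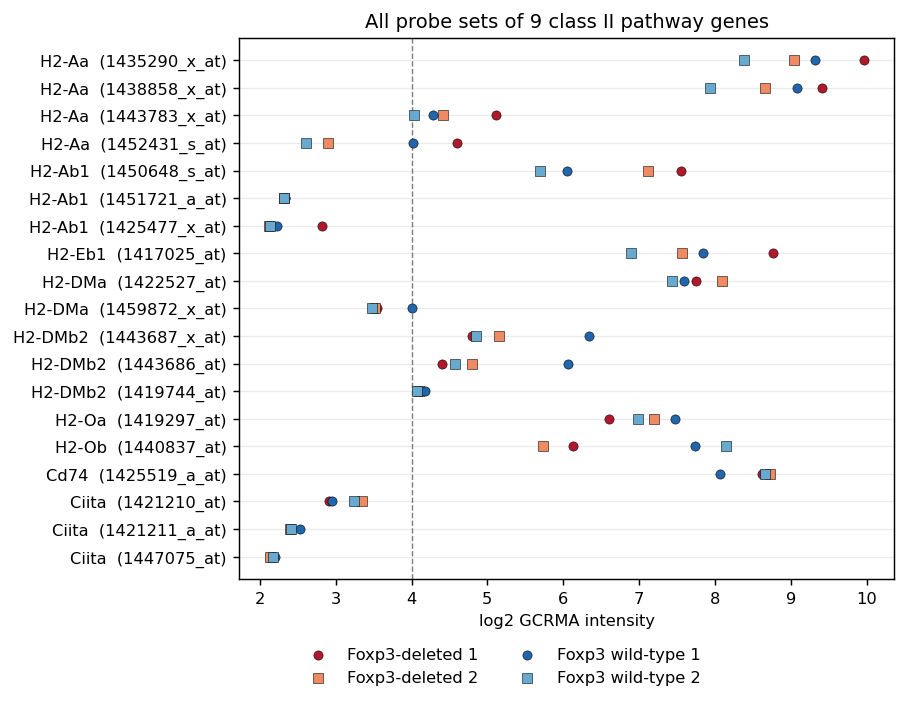
Log2 GCRMA intensity (x axis) of all probe sets of 9 class II pathway genes (rows, with the probe set name) on 4 arrays, with the floor at 4 dashed. On the brightest H2-Ab1 probe set both deleted arrays lie to the right of both wild-type arrays, for H2-Ob both lie to the left, and the H2-Aa and H2-Eb1 arrays interleave.

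Ciita, the coactivator on which class II transcription depends, was near the floor on all 3 of its probe sets, at 2.92 and 3.35 on the Foxp3-deleted arrays against 2.96 and 3.25 on the wild-type arrays on the brightest. Of 27 further genes of class II regulation, antigen processing and class I presentation 22 were tested. Their median difference was 0.04. By at least 1 with no overlap 0 were higher, against 5.57% of all tested genes, and 1 (Cd40) was lower, against 4.93%. Cd40 passed the filter only through the wild-type arrays, where it was high. The pattern of Foxp3-deleted replicate 1 alone was found in 0, against 2.61%. Rfx5, the subunit of the RFX complex that contacts the X box, read 6.98 and 7.72 on the Foxp3-deleted arrays against 8.13 and 8.21 on the wild-type arrays (difference -0.82, SE 0.40, adjusted p = 0.63 in limma). Class I genes were bright and close on all arrays, with differences of -0.14 for B2m and 0.18 for H2-K1.

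B cell genes, which also mark cells that carry class II, were split. Of 17 measured genes 6 were tested. By at least 1 with no overlap 3 were higher in deleted cells, against 5.57% of all tested genes, and 3 were lower, against 4.93%. Cd79b, a signalling chain of the B cell receptor, read 4.04 and 4.94 on the Foxp3-deleted arrays against 6.58 and 6.49 on the wild-type arrays (difference -2.04, SE 0.42, adjusted p = 0.22 in limma). Ighm, the immunoglobulin mu heavy chain, read 10.79 and 11.25 on the Foxp3-deleted arrays against 13.28 and 13.19 on the wild-type arrays (difference -2.22, SE 0.24, adjusted p = 0.0749 in limma), and Cd72 differed by -1.51. The 3 genes with higher means in deleted cells were Cxcr5, a chemokine receptor that follicular T cells also use, Pou2af1 and Cd22. Pou2af1, a coactivator of immunoglobulin genes, read 5.34 and 4.73 on the Foxp3-deleted arrays against 2.91 and 3.50 on the wild-type arrays (difference 1.83, SE 0.39, adjusted p = 0.229 in limma). Its mean over all arrays was 4.12, so it passed the filter only through the deleted arrays. Cd22 read 5.86 and 6.33 on the Foxp3-deleted arrays against 5.70 and 3.76 on the wild-type arrays, where wild-type replicate 2 alone was low. The defining genes Cd79a, Ms4a1 and Pax5 were near the floor. The 6 genes summed to an intensity of 2142 and 3086 on the Foxp3-deleted arrays against 10349 and 9793 on the wild-type arrays, and Ighm gave 96.0% of it in wild-type replicate 1. H2-Ob, Cd79b, Ighm and Cd72 each had lower values on both deleted arrays, whereas Cxcr5, Pou2af1 and Cd22 had higher ones. The part of B cells in the H2-Ob result was not tested.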

How the data were processed

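The deposited values are intensities on a linear scale, 1 array per sample, which the authors computed using GCRMA (version 1.1.3, per the submitters' processing notes). This method corrects background by probe sequence, normalizes between arrays and summarises the probes of a set, which compresses differences near the floor. Its other settings are not given in the labels used here. Per the labels, RNA was extracted with Qiagen RNeasy and labelled with biotin using Ambion Message Amp II.

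Intensities were converted to log2 without a pseudocount. Probe sets with 1 gene symbol in the platform annotation (34945 of 45101) gave 18193 genes. Control probe sets (64) and those with several symbols (932) were left out of tests. The deleted and wild-type groups were compared with limma 3.58.1 in R 4.3.3 (lmFit, eBayes with an intensity trend, two-sided, Benjamini-Hochberg over 8629 genes), with 2 residual and 3.31 prior degrees of freedom. The number of arrays limits the precision. The procedure was tested on simulated data.

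The markers and comparison lists were chosen with earlier results of these data known. Any marker could be named. From each other list up to 4 tested genes with the largest difference and up to 3 with the highest level were named by rule. Ncf1, Klra8, Cd22, Cd79a, Ms4a1, Pax5 and Gm20506 were named after their values were seen. Alternatives covered the filter, the choice of probe set, the floor, quantile normalization, the trend, a replicate block and leaving out each array. Tables and plots used Python 3.11.15, pandas 2.3.3 and matplotlib 3.10.9.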

Additional observations from a re-analysis of the deposited data

How the results depend on the processing

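The count of genes past an adjusted p of 0.05 was 0 in the main setting and in 10 of 13 alternatives. It was 27 with the filter raised to 6, 39 with the mean over probe sets and 43 with quantile normalization, and 0 of those calls were markers. The cause was not tested. Samples shared replicate numbers between groups, but the correlation of same-numbered deviations was -0.30. With a replicate block 0 genes passed and 587 had an unadjusted p below 0.05. With the numbers crossed, an alternative chosen after seeing the data, these counts were 0 and 1233. Markers higher with no overlap numbered 3 in the main setting and 1 (without Foxp3-deleted replicate 1) to 11 (without replicate 2) when 1 array was left out, and those lower with no overlap 2 to 3. Markers high in 1 deleted array alone numbered 7, then 11 without a filter, where more genes are counted (10 with the high array at 4 or above, an alternative chosen after seeing the data), and 7 to 11 with 1 wild-type array left out. A change of the filter, the trend or the block, or a test of every probe set, cannot alter the difference of a marker's brightest probe set. With those settings counted in, 227 of 234 differences of single markers under the alternatives kept their sign, so this count says little about robustness. Each of the 7 exceptions left out 1 array, where the lowest and highest differences were -0.0092 and 0.10 for Adgre1, -0.25 and 0.74 for C1qb, -1.37 and 0.12 for H2-DMb2, -0.14 and 2.12 for Lyz1, -0.14 and 3.25 for Lyz2, and -0.15 and 1.85 for Tyrobp. No marker passed the threshold under any alternative. Readings below 4 are limited by the floor, and with 2 arrays per group only large differences can pass.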
